A study of Mus musculus with 6 samples.

Results

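The 27 genes described here build the peroxisome or carry out fatty acid oxidation inside it, and were chosen by name as rows of the deposited gene table. All 27 were found among its 57180 gene rows, and all 27 reached the mean of at least 1 TPM over the 6 libraries that was required for testing, as did 15446 genes in all. The RNA came from inguinal white adipose tissue, which lies under the skin of the groin, and the donors were male mice of the WT genotype kept on their diets for 12 weeks. In the HEP group (3 libraries) the food was a high-fat diet with 0.5% hesperidin, a flavonoid glycoside of citrus peel, and in the HFD group (3 libraries) it was a high-fat diet without it. Every library carried the same batch label. The labels give no age, no composition of the diet and no statement on whether each sample was 1 animal or a pool, so the tests measure only the spread between these samples, and the control diet of the study was not analysed here.

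The peroxisome is a small organelle bounded by a single membrane, with no genome of its own, and imports all its enzymes from the cytosol. Peroxins, the products of the Pex genes, insert its membrane proteins, carry enzymes through the membrane and drive its division. Inside, fatty acids that mitochondria handle poorly, namely very long-chain, branched and dicarboxylic ones, are shortened by beta-oxidation or, when a methyl branch blocks this, first by alpha-oxidation. In fat, peroxisomes are also known for making ether lipids, and several of their genes are targets of the nuclear receptors PPAR alpha and PPAR gamma.

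The libraries differed widely in markers of other cell types. Summed over 16 B and T cell markers, the TPM was 1827, 24.3 and 1959 in HEP replicates 1 to 3, against 21.7, 33.2 and 1094 in HFD replicates 1 to 3. Markers of liver cells (16 genes) summed to 403, 4540 and 333 TPM in HEP and to 3024, 335 and 497 TPM in HFD. Of these liver sums the gene Cyp2e1 alone held 378, 597 and 189 TPM in HEP and 474, 250 and 324 TPM in HFD. The 15 skeletal muscle markers summed to 2217, 19106 and 95.5 TPM in HEP and to 315, 978 and 157 TPM in HFD. The 16 adipocyte markers summed to 35773, 56629 and 33556 TPM in HEP and to 56324, 59026 and 45956 TPM in HFD. In every library these sums, of markers of the labelled tissue, were the highest of the 4 lists. Detection alone does not separate the lists, since no marker of these 4 lists was at 0 in every library. In bulk tissue, fewer cells of a type and less RNA per cell cannot be told apart.

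**Figure D1:**
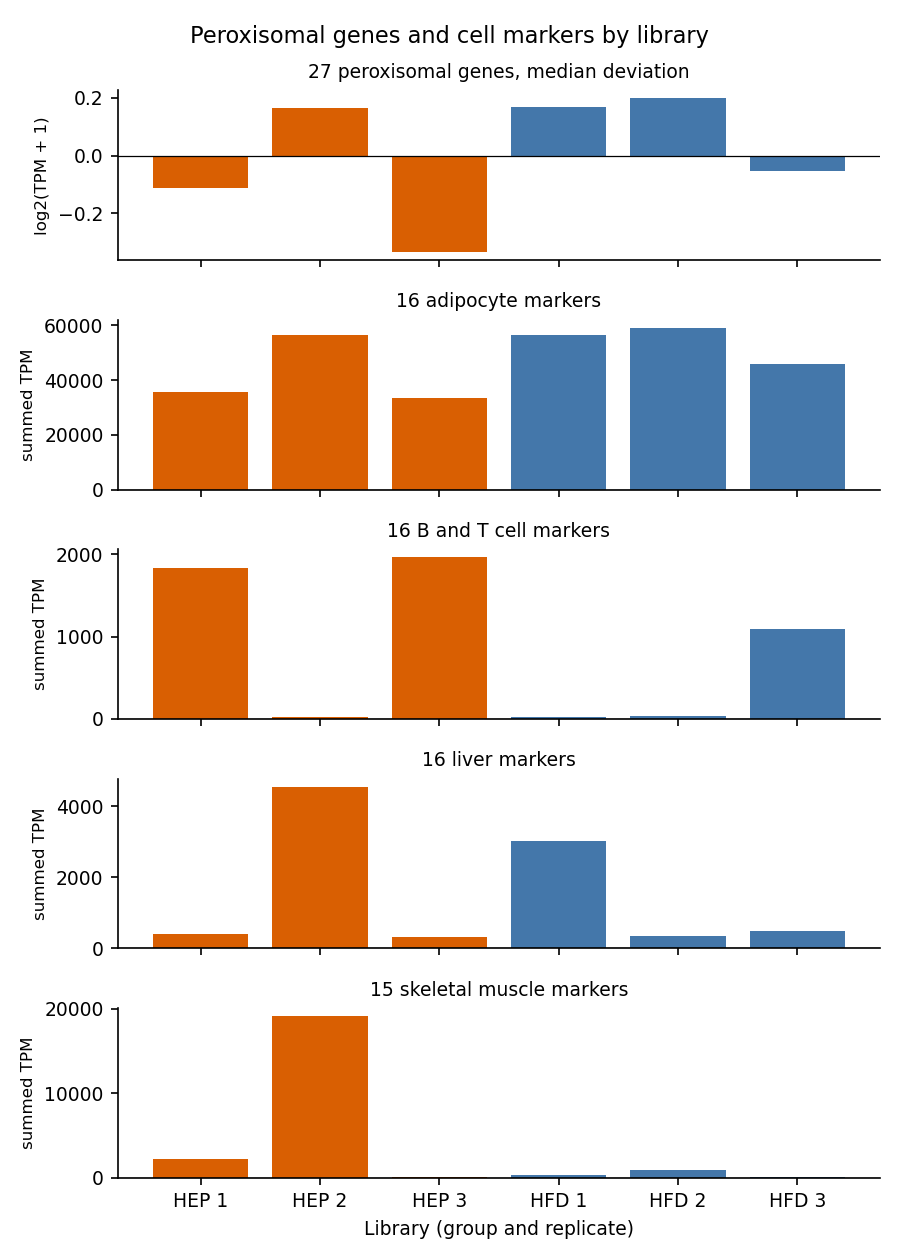
Bars show, for each of the 6 libraries, the median deviation of the 27 peroxisomal genes from their own means (log2 of TPM + 1) and the summed TPM of 4 marker lists, with HEP libraries in orange and HFD libraries in blue. HEP replicates 1 and 3 and HFD replicate 3 were low in peroxisomal genes and adipocyte markers and high in B and T cell markers.

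The question of the design was whether hesperidin changed the transcripts of the fat on a high-fat diet. None of the 27 peroxisomal genes was called changed. In limma on log2(TPM + 1) with Benjamini-Hochberg adjustment over all 15446 genes, 0 of the 27 had an adjusted p under 0.05, as had 0 genes in all (0%), and the smallest adjusted p among the 27 was 0.879. Without adjustment 1 of the 27 had a p under 0.05, the peroxin gene Pex16, beside 279 of all genes tested (1.81%). The 3 HEP values lay wholly below the 3 HFD values for Pex16 and Pex3, 2 of 27, beside 553 of all genes (3.58%). For no gene of the 27 did they lie wholly above, beside 290 of all genes (1.88%). Before adjustment, the median 95% interval of a log2 fold change among the 27 reached 0.48 to either side. Changes smaller than that were mostly not resolvable. A call after adjustment over all genes asked for more, since Pex16, at -0.49, had a limma adjusted p of 0.879.

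Most of the 27 genes had lower mean values in HEP than in HFD without passing the test. The log2 fold change, HEP minus HFD on the log2(TPM + 1) scale, was below 0 for 22 of 27 genes, beside 41.4% of all genes tested, and its median was -0.17, beside 0.07 over all genes. Of the 12 Pex genes 11 were below 0, with a median of -0.16, and of the 15 other genes 11 were, with a median of -0.19. The 16 adipocyte markers were all below 0 as well, with a median of -0.45. When each library was scaled to its own adipocyte markers, which moved the median of all genes by 0.42, only 2 of the 27 genes (Pex16 and Pecr) were below 0 and the median of the 27 was 0.25. This scaling moves every gene's fold change by the same amount. Relative to the median of all genes, the median of the 27 therefore stayed at -0.24 by construction. The turn restates that the median of the 27, -0.17, was less far below 0 than that of the adipocyte markers, -0.45. With a covariate for lymphocyte markers the median was -0.0057 with 15 genes below 0, and -0.0032 relative to all genes. With covariates for both lymphocyte and muscle markers it was -0.18 with 22 below 0, and -0.08 relative to all genes. With sample quality weights the median was -0.36 with 25 below 0. Without the 2 libraries highest in liver markers, HEP replicate 2 and HFD replicate 1, it was -0.30 with 23 below 0. Without HEP replicate 3 the median was -0.03 with 15 genes below 0, without HEP replicate 2 it was -0.33, and without HFD replicate 1 it was -0.09.

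**Figure D2:**
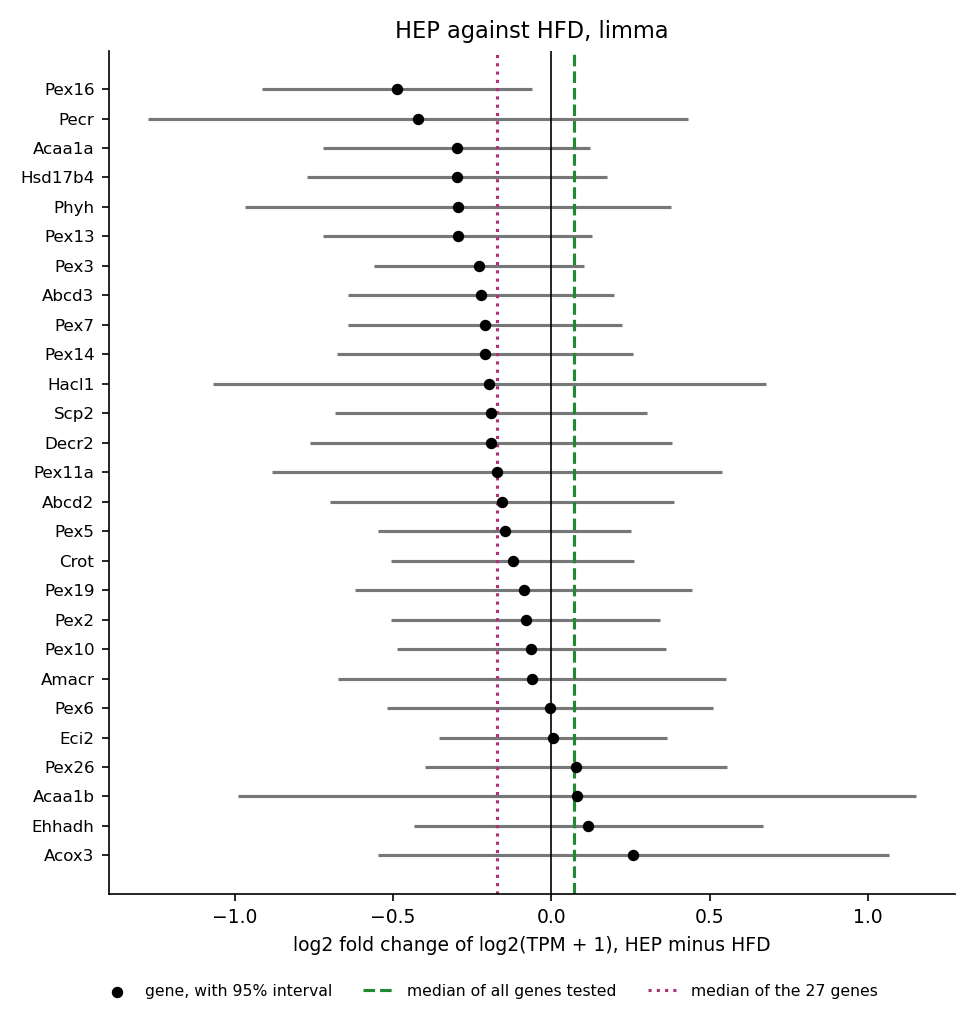
Points are log2 fold changes of the 27 genes, HEP minus HFD, with 95% intervals of limma as bars. The dashed line is the median of all genes tested (0.07) and the dotted line that of the 27 genes (-0.17), and the interval of Pex16 alone lies wholly below 0.

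Within each diet the same libraries were low or high for most of the genes. HEP replicate 3 was the lowest of the 6 libraries for 22 of the 27 genes (81.5%), beside 28.1% of all genes tested. HEP replicate 2 was the highest HEP library for 24 of 27 (88.9%, beside 30.7% of all genes), and HFD replicate 3 was the lowest HFD library for 23 of 27 (85.2%, beside 30.2%). Taken as the median deviation of the 27 genes from their own means, the libraries stood at -0.11, 0.17 and -0.33 in HEP and at 0.17, 0.20 and -0.05 in HFD on the log2 scale. HEP replicate 2 thus lay with HFD replicates 1 and 2, and HEP replicates 1 and 3 lay below all HFD libraries. The 3 low libraries were those with 1094 TPM or more of B and T cell markers and the lowest adipocyte sums, and the part of cell content in the peroxisomal values was not tested. Among the 3 libraries low in lymphocyte markers (HEP replicate 2 against HFD replicates 1 and 2) the median log2 fold change was 0.04 with 9 of 27 genes below 0, and among the 3 rich ones (HEP replicates 1 and 3 against HFD replicate 3) it was -0.12 with 20 below 0. In these fits the lone library of an arm is assumed to vary like the others.

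**Figure D3:**
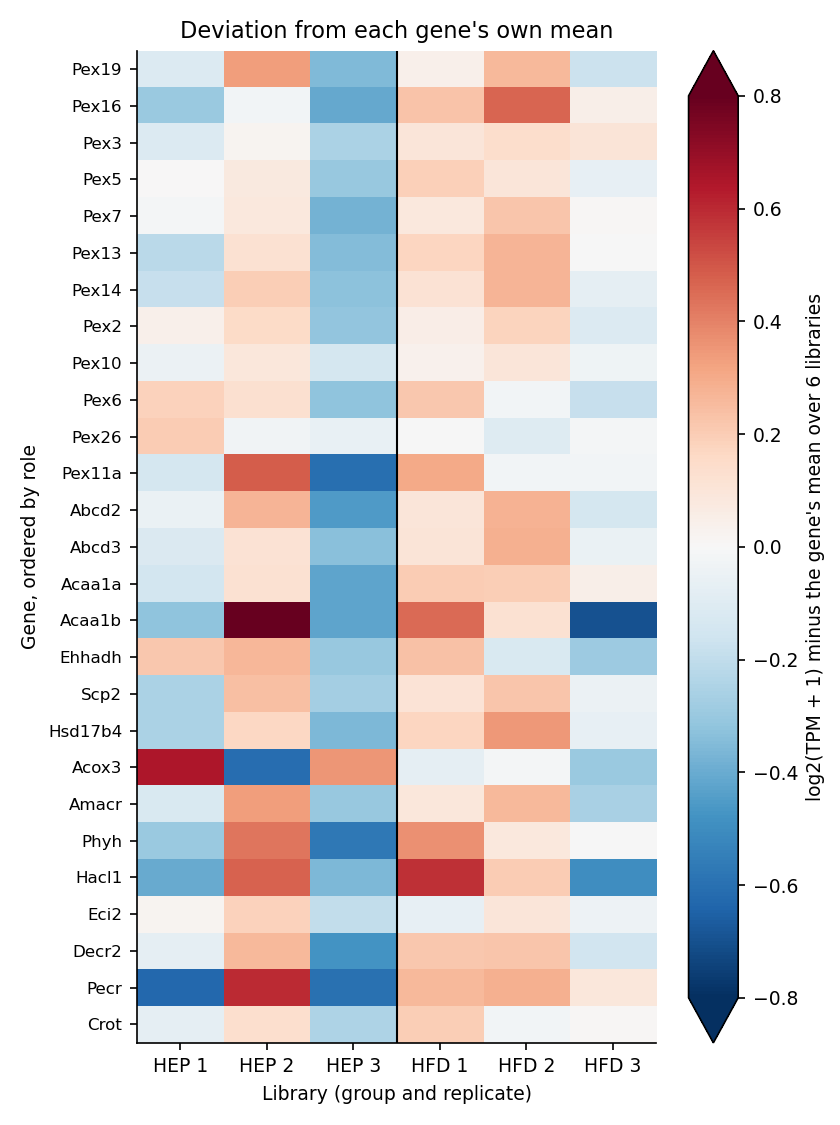
Each cell of the map shows a gene's log2(TPM + 1) in 1 library minus its mean over the 6 libraries, with genes ordered by role and HEP libraries left of HFD libraries. HEP replicate 3 is blue for 26 of the 27 rows, and Acox3 is the exception.

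The membrane assembly peroxins included both genes whose groups did not overlap, 2 of 27, beside 3.58% of all genes wholly lower in HEP. Pex19, of the same role, overlapped. Pex3, Pex16 and Pex19 are needed to put any protein into the peroxisomal membrane, Pex19 as the cytosolic chaperone of these proteins, Pex3 as its dock on the membrane and Pex16 as a membrane protein that receives Pex3. Pex16 had 39.7, 48.3 and 36.7 TPM in HEP, against 57.6, 68.1 and 50.7 TPM in HFD. The highest HEP library lay under the lowest HFD library. The means were 41.6 ± 5.99 TPM in HEP and 58.8 ± 8.76 TPM in HFD (SD, n = 3 each), and the log2 fold change was -0.49 ± 0.18 (SE). Its 95% interval ran between -0.91 and -0.06. The adjusted p in limma was 0.879 (0.0307 before adjustment over all genes). Pex16 was the only gene of the 27 whose fold change was below 0 in all 21 alternatives. It ran between -0.64 with sample quality weights and -0.07 with adipocyte scaling. This count is no measure of stability, since many alternatives could not turn the sign. Every HEP value lay below every HFD value, so any fit on a subset of the libraries keeps that order. Changes of the filter left the fold change of Pex16 as it was. Leaving out 1 library moved it between -0.60 and -0.38, and its smallest adjusted limma p in any alternative was 0.12.

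Pex3 had 29.5, 32.3 and 26.5 TPM in HEP, against 34.2, 35.2 and 34.3 TPM in HFD. Its HFD libraries were nearly equal and all lay above the HEP libraries, though the fold change was smaller than that of Pex16. The log2 fold change was -0.23 ± 0.14 (SE, limma adjusted p = 0.879), and it was 0.19 with adipocyte scaling, the only alternative that turned it. As for Pex16, fits on subsets of the libraries could not turn it. Pex19, the most abundant peroxin gene, averaged 147 ± 36.8 TPM in HEP and 154 ± 22.8 TPM in HFD, and its groups overlapped. Relative to Pex19, Pex16 stood at 0.290, 0.258 and 0.318 in HEP, against 0.377, 0.384 and 0.385 in HFD, as a ratio of TPM values within a library, which any scaling of whole libraries leaves as it is. Relative to Pex3, Pex16 stood at 1.346, 1.496 and 1.385 in HEP, against 1.686, 1.933 and 1.477 in HFD, and this ratio overlapped between the diets. Both ratios were computed after the values were seen. The first describes these libraries only and does not tell which of the genes differed. How often the ratio of any pair of genes separates in this way was not tested.

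The windows around the RefSeq starts of Pex16 and Pex3 are shown because these alone of the 27 genes had groups that did not overlap. They run from 250 bases before to 50 bases after a start and are given 5' to 3' on the gene's strand in RefSeq's GRCm38.p6, with motif matches on either strand in capitals. The motifs were the GC box, spelled GGGCGG and known to bind Sp1. They also included the CCAAT box, bound by the factor NF-Y. The third was the TATA box, spelled TATAAA, where the transcription machinery can assemble. Pex16 has a pair of start windows on the plus strand, at chr2:92374426-92374725 and chr2:92374989-92375288, and Pex3 has a window on the minus strand at chr10:13553093-13553392.
Pex16, upstream start: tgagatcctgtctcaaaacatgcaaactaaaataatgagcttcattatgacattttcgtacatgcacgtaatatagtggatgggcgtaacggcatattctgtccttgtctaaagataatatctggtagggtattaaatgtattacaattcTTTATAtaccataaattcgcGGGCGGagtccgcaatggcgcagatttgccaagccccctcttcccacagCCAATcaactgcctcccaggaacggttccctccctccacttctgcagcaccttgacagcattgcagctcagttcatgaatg
Pex16, downstream start: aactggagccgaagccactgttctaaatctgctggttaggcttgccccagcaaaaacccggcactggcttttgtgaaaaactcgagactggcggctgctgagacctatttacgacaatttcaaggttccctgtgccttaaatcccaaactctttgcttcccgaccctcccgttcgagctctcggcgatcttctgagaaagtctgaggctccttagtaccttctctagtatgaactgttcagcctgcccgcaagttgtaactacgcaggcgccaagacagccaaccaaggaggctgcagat
Pex3: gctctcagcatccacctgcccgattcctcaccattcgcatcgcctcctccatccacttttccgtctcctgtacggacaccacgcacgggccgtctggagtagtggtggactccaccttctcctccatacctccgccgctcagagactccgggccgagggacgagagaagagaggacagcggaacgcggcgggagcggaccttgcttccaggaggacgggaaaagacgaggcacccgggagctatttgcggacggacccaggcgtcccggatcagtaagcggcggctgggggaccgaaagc
The upstream Pex16 window holds a match to each of the 3 motifs, and the other windows hold none of them. Its TATA box match reads TTTATA, so TATAAA lies on the strand opposite to the gene. The Pex3 window has 28 CpG dinucleotides, and the Pex16 windows have 10 and 13.

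Import of enzymes runs through the receptors Pex5 and Pex7, which bind the targeting signals at the end and near the start of the cargo protein, and through the docking proteins Pex13 and Pex14. Pex5 had 27.8, 29.4 and 22.3 TPM in HEP, against 31.8, 29.8 and 26.4 TPM in HFD. Pex7 had 19.4, 20.9 and 14.9 TPM in HEP, against 20.9, 23.1 and 19.8 TPM in HFD. Both overlapped between the diets and were lowest in HEP replicate 3, with log2 fold changes of -0.15 ± 0.17 and -0.21 ± 0.18 (SE). Pex13 had 29.0, 36.9 and 26.5 TPM in HEP, against 38.3, 41.2 and 33.8 TPM in HFD, and only HEP replicate 2 reached into the HFD range. The log2 fold change of Pex13 was -0.30 ± 0.18 (SE), and limma gave an adjusted p of 0.879. Pex14 had 22.4, 29.4 and 20.1 TPM in HEP, against 27.7, 31.0 and 24.3 TPM in HFD, with HEP replicates 1 and 3 again below all HFD libraries and a log2 fold change of -0.21 ± 0.19 (SE). Without HEP replicate 3 the log2 fold change was -0.0333 for Pex5, -0.072 for Pex7, -0.20 for Pex13 and -0.0968 for Pex14. Without HEP replicate 2 it was -0.22 for Pex5, -0.30 for Pex7, -0.43 for Pex13 and -0.36 for Pex14. The sign turned with adipocyte scaling, which gave 0.27 for Pex5, 0.21 for Pex7, 0.12 for Pex13 and 0.21 for Pex14, and for Pex14, at 0.0059, among the libraries low in lymphocyte markers.

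Receptors are recycled by a ubiquitin ligase ring, which includes Pex2 and Pex10, and by an export motor, in which Pex6 is an ATPase and Pex26 its anchor on the membrane. The differences of these 4 genes were small against their errors. Pex2 had 42.7, 46.5 and 33.3 TPM in HEP, against 43.3, 47.1 and 38.5 TPM in HFD. Pex10 had 6.75, 7.56 and 6.29 TPM in HEP, against 7.21, 7.58 and 6.82 TPM in HFD, and varied least of the 27, by a factor of 1.21 between its lowest and highest library. The groups of both overlapped, with 95% intervals of the log2 fold change of -0.50 to 0.34 for Pex2 and -0.49 to 0.36 for Pex10. Pex6 had 14.2, 13.7 and 9.72 TPM in HEP, against 14.6, 12.2 and 10.8 TPM in HFD. Pex26, the least abundant gene of the set and listed with the biotype of nonsense-mediated decay in the deposited table, had 5.19, 4.29 and 4.17 TPM in HEP, against 4.38, 4.02 and 4.32 TPM in HFD. Their intervals were -0.52 to 0.51 for Pex6 and -0.40 to 0.56 for Pex26, so neither direction could be told. Pex11a, which elongates the membrane before division and is a known PPAR alpha target in liver, had 22.1, 34.7 and 15.8 TPM in HEP, against 30.4, 24.1 and 24.0 TPM in HFD. The HEP libraries spanned the whole range of the gene, and the log2 fold change of -0.17 ± 0.29 (SE) was smaller than its error.

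Fatty acyl groups enter through half-transporters of the ABC family. Abcd2 and Abcd3 carry very long-chain and branched or dicarboxylic acyl-CoAs, and Abcd2 is known to be abundant in fat. On the TPM scale, which is per transcript length, Abcd2 stood 3.47 to 4.18 times above Abcd3 in the 6 libraries. Abcd2 had 160, 201 and 121 TPM in HEP, against 178, 202 and 151 TPM in HFD. Abcd3 had 40.9, 48.1 and 35.0 TPM in HEP, against 47.7, 54.1 and 42.7 TPM in HFD. Both transporters overlapped between the diets, at log2 fold changes of -0.16 ± 0.22 and -0.22 ± 0.17 (SE). Both were lowest in HEP replicate 3 and highest in HFD replicate 2, as were Hsd17b4, Pex2, Pex3, Pex7, Pex10, Pex13, Pex14 and Pex16.

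Straight-chain beta-oxidation is represented by Ehhadh, the bifunctional enzyme that hydrates and dehydrogenates the chain, and by the thiolases Acaa1a and Acaa1b, which cleave it. Acaa1a had 67.7, 81.9 and 55.7 TPM in HEP, against 86.5, 86.3 and 77.6 TPM in HFD. HEP replicate 2 alone reached into the HFD range, and the log2 fold change was -0.30 ± 0.17 (SE, limma adjusted p = 0.879). Acaa1b had 25.8, 60.0 and 24.1 TPM in HEP, against 44.8, 35.4 and 19.7 TPM in HFD, a 3.04-fold range that was the widest of the 27 genes. Its log2 fold change was 0.08 ± 0.44 (SE), and without HEP replicate 2 it was -0.33. The ratio of Acaa1b to Acaa1a was 0.38, 0.73 and 0.43 in HEP, against 0.52, 0.41 and 0.25 in HFD. The longest open reading frames of both thiolase genes in GENCODE M21 are 1275 bases long and identical at 96.5% of positions, with an unbroken identical stretch of 327 bases, so reads can be shared between the copies and the split is uncertain. Their sum, which does not depend on the split, was 93.4, 142 and 79.7 TPM in HEP, against 131, 122 and 97.3 TPM in HFD. Ehhadh had 28.1, 29.1 and 19.3 TPM in HEP, against 28.5, 22.1 and 19.5 TPM in HFD, with HEP libraries that spanned slightly more than the HFD range.

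The start windows of the thiolase genes are shown because their coding sequences are nearly identical. Acaa1a ranged 1.55-fold across the libraries and Acaa1b 3.04-fold, though both had the same order of libraries within each diet. The split of reads between them is uncertain. Acaa1a lies on the plus strand at chr9:119341044-119341343 and Acaa1b on the minus strand at chr9:119157044-119157343 in RefSeq's GRCm38.p6, with the same motifs in capitals.
Acaa1a: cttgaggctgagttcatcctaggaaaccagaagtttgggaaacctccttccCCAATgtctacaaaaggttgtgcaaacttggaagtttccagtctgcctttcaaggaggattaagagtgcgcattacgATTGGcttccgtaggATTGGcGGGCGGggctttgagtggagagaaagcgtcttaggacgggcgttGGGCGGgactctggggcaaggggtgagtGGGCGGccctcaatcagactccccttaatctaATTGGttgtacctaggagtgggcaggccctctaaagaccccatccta
Acaa1b: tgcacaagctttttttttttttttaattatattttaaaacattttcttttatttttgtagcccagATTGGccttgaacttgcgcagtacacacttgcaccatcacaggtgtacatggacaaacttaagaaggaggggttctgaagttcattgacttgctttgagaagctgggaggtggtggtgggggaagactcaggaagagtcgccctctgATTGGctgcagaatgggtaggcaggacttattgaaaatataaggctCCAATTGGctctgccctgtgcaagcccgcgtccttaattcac
The Acaa1a window holds both GC and CCAAT box matches and has 10 CpG dinucleotides, and the Acaa1b window holds CCAAT box matches alone and has 4, the fewest of all windows of the set.

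**Figure D4:**
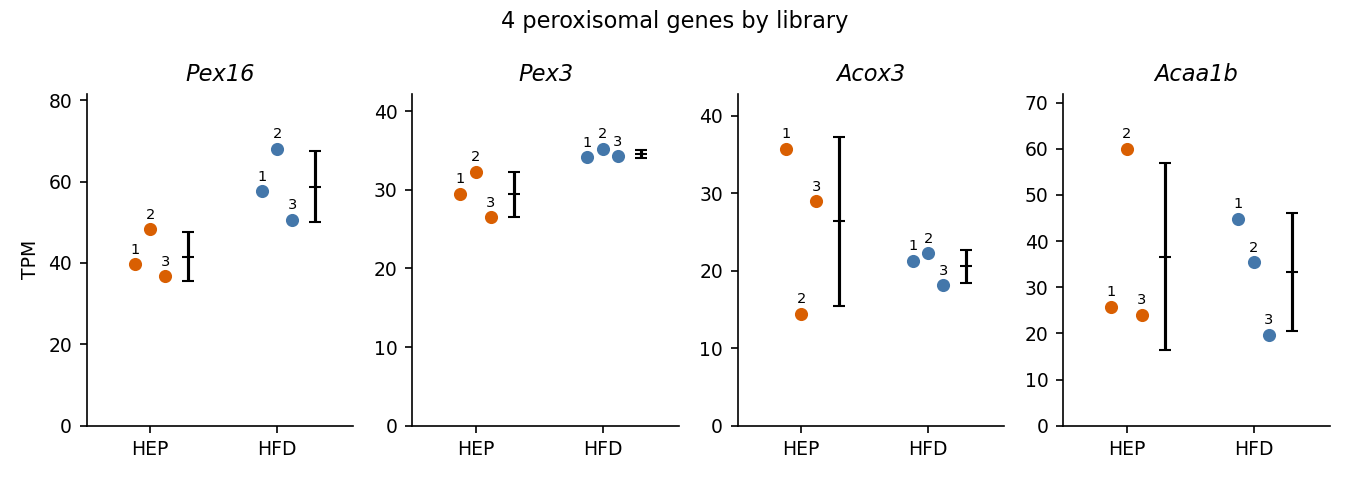
Points are TPM values of Pex16, Pex3, Acox3 and Acaa1b, numbered by replicate, with HEP left of HFD and the mean and SD (n = 3) beside each group. The diets separate for Pex16 and Pex3, and HEP replicate 2 stands apart from HEP replicates 1 and 3 for Acox3 (14.4 TPM) and Acaa1b (60.0 TPM).

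Branched chains and the side chains of bile acid precursors are oxidised by Acox3, an acyl-CoA oxidase, by Hsd17b4, the second bifunctional enzyme, by Scp2, whose long form is a thiolase and whose short form binds sterols, and by Amacr, which turns the branch into the form that can be oxidised. Scp2 was by far the most abundant gene of the set, with 791, 1114 and 779 TPM in HEP, against 1017, 1100 and 913 TPM in HFD. In GENCODE M21 it overlaps Podn on the same strand (mean 25.5 TPM), and no other same-strand overlap with a gene of at least 1 TPM was found among genes with a value, though genes that overlap Pex6 and Crot had none. On the opposite strand 4 of the 27 overlap such a gene, Acaa1a with Myd88 (mean 19.7 TPM), Hacl1 with Btd (25.0 TPM), Pex13 with Pus10 (13.6 TPM) and Pex3 with Adat2 (3.35 TPM). The kit's strandedness is not stated, so reads of these pairs may not be told apart. Hsd17b4 had 139, 187 and 130 TPM in HEP, against 187, 212 and 159 TPM in HFD. For both, HEP replicates 1 and 3 lay below all HFD libraries and HEP replicate 2 lay inside the HFD range, or above it for Scp2, and the log2 fold changes were -0.19 ± 0.20 and -0.30 ± 0.20 (SE, limma adjusted p = 0.879 for both). Amacr averaged 7.13 ± 1.92 TPM in HEP and 7.42 ± 1.49 TPM in HFD (SD, n = 3 each).

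Acox3 had an order of libraries unlike that of the other genes. It had 35.8, 14.4 and 29.0 TPM in HEP, against 21.3, 22.3 and 18.1 TPM in HFD. HEP replicates 1 and 3 were above every other library and HEP replicate 2 was below every other library, so the HEP mean of 26.4 ± 10.9 TPM stood beside 20.6 ± 2.17 TPM in HFD (SD, n = 3 each). The log2 fold change was 0.26 ± 0.33 (SE, limma adjusted p = 0.879). It was 0.63 without HEP replicate 2 and 0.0018 without HEP replicate 1. Among libraries low in lymphocyte markers it was -0.56, and among those rich in them it was 0.80. HFD replicate 3 was rich in lymphocyte markers too and had 18.1 TPM, the lowest Acox3 value in HFD. Of the 27 genes Acox3 alone had its highest values in HEP replicates 1 and 3 together, a pattern found in 32.5% of all genes tested, while the opposite pattern, both of these libraries below the other 4, was found in 14 of 27 (51.9%) and in 14.2% of all genes.

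The window of Acox3, the gene with the largest positive fold change of the set, lies on the plus strand at chr5:35582784-35583083 in RefSeq's GRCm38.p6 and holds GC box matches and neither of the other motifs.
Acox3: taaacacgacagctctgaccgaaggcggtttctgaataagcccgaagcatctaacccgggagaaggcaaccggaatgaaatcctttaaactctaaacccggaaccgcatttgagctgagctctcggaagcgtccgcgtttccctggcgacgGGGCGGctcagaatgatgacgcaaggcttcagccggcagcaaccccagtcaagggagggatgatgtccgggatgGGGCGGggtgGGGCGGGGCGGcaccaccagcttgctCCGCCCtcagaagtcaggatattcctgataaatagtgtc
It has 22 CpG dinucleotides, beside a median of 15.5 over the windows of the set and of 7 over all windows. In all, 22 of the 27 genes had 26 such windows. A GC box was held by 18 of these windows, beside 35.6% of all 32817 windows, while 11 held a CCAAT box (37.4% of all) and 3 a TATA box (13.6%). The 3 TATA box matches, in Pex14, Pex16 and Pex26, all read TTTATA, with TATAAA on the strand opposite to the gene. The DR1 element bound by PPAR and RXR dimers, a direct repeat of AGGTCA with 1 base between, was not found in any of the 26 windows with up to 2 mismatches on either strand, beside 3.86% of all windows, which says only that these letters are absent from these 300 bases.

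Alpha-oxidation removes a single carbon from acids such as phytanic acid. Phyh hydroxylates the acid and Hacl1 splits it. Phyh had 144, 238 and 119 TPM in HEP, against 229, 187 and 176 TPM in HFD. Hacl1 had 19.1, 35.9 and 19.8 TPM in HEP, against 39.0, 29.8 and 17.9 TPM in HFD. Both were highest in HEP replicate 2 and HFD replicate 1, and their log2 fold changes of -0.30 ± 0.28 and -0.20 ± 0.36 (SE) did not clear the spread between libraries. Leaving out HEP replicate 2 set Phyh at -0.58, leaving out HEP replicate 3 set it at -0.0834, and leaving out HFD replicate 1 at -0.19. Leaving out 1 library in turn moved Hacl1 between -0.49 without HFD replicate 3 and 0.0473 without HFD replicate 1.

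These 2 libraries were also the highest in liver transcripts, and the gene of serum albumin, Alb, had 9.20, 1024 and 39.3 TPM in HEP, against 664, 27.5 and 48.8 TPM in HFD. HEP replicate 2 and HFD replicate 1 were the 2 highest libraries for 6 of the 27 genes (22.2%), namely Phyh, Hacl1, Acaa1b, Crot, Pex11a and Ehhadh, and for 5.23% of all genes tested. Peroxisomal enzymes of liver on the wider list below showed the same pair of libraries more sharply. Slc27a2, a very long-chain acyl-CoA synthetase, had 0.05, 36.7 and 1.11 TPM in HEP, against 22.8, 0.62 and 1.58 TPM in HFD, and Uox, the urate oxidase, had 0, 33.2 and 1.24 TPM in HEP, against 19.2, 1.54 and 0.53 TPM in HFD. The part of liver transcripts in the values of the 6 genes was not tested. Without both libraries, an alternative chosen after seeing the data, the log2 fold changes were -0.47 for Phyh, -0.24 for Hacl1, -0.08 for Acaa1b, -0.15 for Crot, -0.35 for Pex11a and 0.16 for Ehhadh, and -0.61 for Pex16.

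Double bonds are handled by the auxiliary enzymes Decr2, a dienoyl-CoA reductase, and Eci2, an enoyl-CoA isomerase, while Pecr reduces trans-enoyl-CoA in chain elongation. Pecr had 9.56, 23.7 and 9.78 TPM in HEP, against 18.5, 18.9 and 16.4 TPM in HFD. The HFD libraries lay close together, and the HEP libraries lay on both sides of them, with the log2 fold change at -0.42 ± 0.35 (SE) over all libraries. It was -0.83 when HEP replicate 2 was left out, -0.21 when HEP replicate 1 was, and -0.23 when HEP replicate 3 was. Decr2 had 18.1, 23.0 and 13.4 TPM in HEP, against 22.3, 22.3 and 17.0 TPM in HFD. Eci2 averaged 109 ± 14.5 TPM in HEP and 108 ± 6.84 TPM in HFD (SD, n = 3 each), with a 95% interval of the log2 fold change of -0.35 to 0.36. Shortened acyl groups leave as carnitine esters made by Crot, which had 32.3, 37.3 and 28.4 TPM in HEP, against 38.9, 33.4 and 34.2 TPM in HFD, with overlap.

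Other genes listed with the organelle were mostly below 0 as well, and none was called. The list is not confined to genes that act only in the peroxisome, as Idh1 below shows. Of 79 listed genes 76 were found and 68 were tested, and 0 passed in either direction at an adjusted limma p under 0.05. The log2 fold change was below 0 for 51 and above 0 for 17, with a median of -0.10, beside 41.4% below 0 and a median of 0.07 over all genes. An unadjusted p under 0.05 was found for 2 genes, a share near the 1.81% of all genes. These were Mvk, the mevalonate kinase, at 12.6, 14.3 and 10.1 TPM in HEP, against 18.5, 22.2 and 15.6 TPM in HFD, and Idh1, which makes NADPH in cytosol and peroxisome, at 132, 173 and 136 TPM in HEP, against 195, 214 and 181 TPM in HFD. Next by p were Isoc1, at 61.9 ± 3.19 TPM in HEP and 75.8 ± 8.57 TPM in HFD, and Pxmp2, a channel of the peroxisomal membrane, at 27.2 ± 10.7 TPM in HEP and 38.2 ± 1.56 TPM in HFD (SD, n = 3 each). The HEP values lay wholly below the HFD values for 7 of the 68 genes, beside the 3.58% of all genes given above, and wholly above for 0. The 7 were Mvk, Idh1 and Isoc1 and, named after their values were seen, Pmvk, Paox, Fis1 and Mpv17l. Cat, the catalase that breaks down hydrogen peroxide, averaged 377 ± 93.8 TPM in HEP and 452 ± 77.9 TPM in HFD (SD, n = 3 each). Acox2, the oxidase of bile acid side chains in liver, was under the filter, with 0.71 ± 0.88 TPM in HEP and 0.62 ± 0.49 TPM in HFD.

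Genes that regulate peroxisomes or share their regulators showed no common direction. Of 38 listed regulators and targets of the PPAR receptors 36 were tested, 18 below 0 and 18 above it, with a median log2 fold change of 0.01, and 0 passed in either direction, with 0 at an unadjusted p under 0.05. Pparg, the master regulator of fat cells, averaged 110 ± 33.2 TPM in HEP and 158 ± 25.4 TPM in HFD, and its groups overlapped. Ppara had 2.08, 3.15 and 0.84 TPM in HEP, against 1.65, 1.68 and 1.15 TPM in HFD, and the coactivator gene Ppargc1a had 1.57, 1.56 and 0.97 TPM in HEP, against 1.83, 1.10 and 2.01 TPM in HFD. The list's smallest p-values belonged to Rxrb, a partner receptor, at 23.0 ± 3.50 TPM in HEP and 16.8 ± 2.31 TPM in HFD, to Pparg, and to Etfdh and Hadhb of mitochondrial oxidation, at 56.1 ± 11.05 and 217 ± 43.5 TPM in HEP and at 67.4 ± 2.82 and 265 ± 27.8 TPM in HFD (SD, n = 3 each). The adjusted limma p was 0.879 for Rxrb, Pparg, Etfdh and Hadhb.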

How the data were processed

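The authors deposited 1 table of TPM values per gene for the 6 libraries, with columns of group means that matched the sample columns to 3.3e-05 TPM. Each column summed to between 999999.71 and 1000000.7. Because TPM is relative to transcript length and to the total of a library, no read depth can be recovered, depth per sample is unknown and no counting interval was given. Libraries were made with the TruSeq kit, per the labels' protocols. RSEM, HISAT2, StringTie, DESeq2 and fastp are named, with neither role nor version, per the submitters' processing notes. For the genome build and the strandedness, the sources used here give nothing.

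Samples were grouped by title. Genes whose mean reached 1 TPM were tested, HEP minus HFD, on log2(TPM + 1), which understates the change of low genes, with limma 3.58.1 (R 4.3.3), an intensity trend, two-sided tests and Benjamini-Hochberg adjustment over 15446 genes at a threshold of 0.05. The fit was tested on simulated data. The members, marker lists, wider lists, tests and 20 of the 21 alternatives were chosen with earlier results of these data known. All members were named. Values in every sample were given for non-overlapping members, for up to 2 members of each role by smallest p and for a fixed few, and for Acox3, Mvk, Idh1, Slc27a2, Uox and Alb after their values were seen. Of the wider lists, up to 4 genes by smallest p and a fixed few were named, of which 1 is not reported here. Promoter windows came from RefSeq GRCm38.p6, overlaps and reading frames from GENCODE M21. The GC, CCAAT and TATA box searches were added after the data were seen.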

Additional observations from a re-analysis of the deposited data

How the results depend on the processing

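Depth is unknown, 3 libraries per group give wide intervals, and cell content differs between libraries, which limits every comparison here. The 27 genes gave 0 calls in all 21 alternatives. Over all genes 0 were called in each of them except without HEP replicate 2, where 1 gene was called, the small nuclear RNA gene Gm25541, named after its value was seen; the other leave-one-out fits called 0. At an unadjusted p under 0.05, that fit held 7 of the 27 genes (23.8% of all genes) and sample quality weights 15 (32.9% of all genes). Against all libraries, the median of all genes moved by 0.42 with adipocyte scaling, -0.13 with quantile normalization, -0.17 with lymphocyte and muscle covariates and -0.15 within the libraries low in lymphocyte markers. With a filter at 5 TPM, Pex26 had no value. The median log2 fold change of the 27 genes was 0.25 with adipocyte scaling and 0.0407 within the 3 libraries low in lymphocyte markers, with 2 and 9 genes below 0, against -0.17 and 22 over all libraries. Of 566 values of single genes 78 turned direction, 20 of them with adipocyte scaling. That scaling moved all genes alike, so by construction it left the median of the 27 at -0.24 relative to all genes. The cause of the other turns was not tested. Pex16 turned in none, though many of the alternatives could not turn it. The lymphocyte covariate gave a median of -0.0057 with 15 genes below 0, lymphocyte and muscle covariates one of -0.18 with 22, and sample quality weights one of -0.36 with 25.

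With adipocyte scaling the turned values were 0.26 for Abcd2, 0.20 for Abcd3, 0.12 for Acaa1a, 0.36 for Amacr, 0.30 for Crot, 0.23 for Decr2, 0.22 for Hacl1, 0.12 for Hsd17b4, 0.36 for Pex10, 0.25 for Pex11a, 0.12 for Pex13, 0.21 for Pex14, 0.33 for Pex19, 0.34 for Pex2, 0.19 for Pex3, 0.27 for Pex5, 0.41 for Pex6, 0.21 for Pex7, 0.12 for Phyh and 0.23 for Scp2. Within the libraries low in lymphocyte markers they were 0.0871 for Abcd2, -0.56 for Acox3, 0.16 for Amacr, 0.0484 for Crot, 0.043 for Decr2, 0.0745 for Hacl1, 0.33 for Pecr, 0.0284 for Pex10, 0.35 for Pex11a, 0.0059 for Pex14, 0.19 for Pex19, 0.0407 for Pex2, 0.0344 for Pex6, 0.20 for Phyh and 0.0745 for Scp2. Within the rich libraries they were 0.0482 for Amacr, -0.0482 for Eci2, 0.11 for Hacl1 and 0.12 for Pex6. The lymphocyte covariate gave 0.0184 for Abcd2, 0.14 for Amacr, 0.16 for Hacl1, 0.0479 for Pex11a, 0.0939 for Pex19, 0.0243 for Pex2 and 0.0932 for Pex6. Lymphocyte and muscle covariates gave 0.0030 for Amacr, -0.11 for Eci2, 0.30 for Hacl1 and -0.034 for Pex26. Median-of-ratios scaling gave -0.0526 for Eci2, quantile normalization -0.0461 for Acaa1b, -0.0103 for Ehhadh and -0.12 for Pex26, and sample quality weights -0.33 for Acaa1b, -0.15 for Eci2 and -0.13 for Ehhadh. Without the 2 libraries highest in liver transcripts the values were -0.0843 for Acaa1b, -0.12 for Eci2 and 0.0361 for Pex6. Leaving out 1 library in turn moved Abcd2 between -0.33 and 0.0321, Acaa1b between -0.33 and 0.33, Amacr between -0.24 and 0.076, Decr2 between -0.37 and 0.0010, Eci2 between -0.0865 and 0.11, Hacl1 between -0.49 and 0.0473, Pex11a between -0.46 and 0.0883, Pex19 between -0.28 and 0.0688, Pex2 between -0.18 and 0.0565, Pex26 between -0.0022 and 0.13 and Pex6 between -0.10 and 0.15.

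The replicate numbers were not used as pairs in the main fit. Deviations of same-numbered libraries from their group means correlated at -0.36, 0.37 and 0.65 across genes. HEP replicates 1 and 2 correlated best with HFD replicates 3 and 1, and HEP replicate 3 with HFD replicate 3. Because cell content also differed between libraries, these correlations cannot tell whether the samples were paired. With the replicate block the fold changes were the same, 576 genes in place of 279 had an unadjusted p under 0.05, and 0 genes and 0 of the 27 were called.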
